A study of Homo sapiens with 10 samples.

Results

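The 3 genes described here, GDF15, STC1 and STC2, encode secreted stress factors and were taken by symbol from the 20289 genes of the deposited expression table. They were proposed with earlier results of these same libraries in view, so their own values are given as a description and carry no test. The table covers CFPAC-1 and PANC-1, cell lines from human pancreatic adenocarcinoma, each represented by a single line. CFPAC-1 cells received 10 µM imidazole ketone erastin (IKE, 2 libraries), with 0.1% DMSO as the control (2 libraries). PANC-1 cells received 1 µM IKE (4 libraries), again with 0.1% DMSO as the control (2 libraries). All cells were treated for 24 h. Replicates are labelled as bioreplicates, with no word on separate cultures, so each p-value reflects the spread among these libraries alone, which may be technical. IKE, an erastin derivative, inhibits the cystine importer known as system xc-. Dead cells and debris were removed first, so the libraries hold the cells that survived, and a change in which cells survived cannot be told apart from a change in RNA per cell. The dose differs between the lines, so an effect of line and an effect of dose cannot be told apart.

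GDF15 is a distant member of the TGF-β superfamily, made as a precursor that proprotein convertases cleave, and it signals through GFRAL with the co-receptor RET on hindbrain neurons, where it lowers food intake. Its transcription is known to be raised by ATF4 and DDIT3 in the integrated stress response and by EGR1. The stanniocalcins STC1 and STC2 are glycoprotein hormones that inhibit the pappalysins PAPPA and PAPPA2, proteases that release insulin-like growth factors (IGFs) from their binding proteins. STC2 is a known ATF4 target, and both stanniocalcins have been reported to respond to hypoxia.

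In GENCODE 29 (GRCh38), GDF15 (ENSG00000130513) lies on the plus strand of chromosome 19 at 18374731 to 18389176 and contains the microRNA gene MIR3189, and reads of MIR3189 and GDF15 may not be separable in these values. STC2 (ENSG00000113739) lies on the minus strand of chromosome 5 at 173314713 to 173329503. RefSeq promoter sequence (GRCh38.p14, 250 bases before to 50 bases from the start site) was taken for 2 of the 3 genes, GDF15 and STC2, and STC1 was left out. The stretches show promoter elements of these 2 genes, which were higher with IKE in each line. Capitals mark the motif match, and each stretch is 30 bases long, written 5′ to 3′ on the strand of the gene.
GDF15 GC box and CCAAT box, chr19:18386035-18386064, plus strand: gaccCCGCCCagctgtggtcATTGGagtgt
GDF15 GC box, chr19:18386076-18386105, plus strand: gcagggggaggaGGGCGGgactgagcaggc
GDF15 TATA element, chr19:18386117-18386146, plus strand: aagtccggggacTATAAAggccggtccggc
STC2 CCAAT box, chr5:173328497-173328526, minus strand: ccggggtctcggATTGGtccagccgccggg

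The motifs were searched on both strands of the 35116 promoters in the RefSeq table. GGGCGG (GC box) occurred in 45.0% of them, CCAAT in 34.6%, TATAAA in 11.5% and TGACNNNGC (the core of the antioxidant response element) in 13.3%. GDF15 held the GC box at 2 positions, CCAAT and TATAAA once each. STC2 held CCAAT once and TGACNNNGC once, the second of these downstream of its start. The C/EBP-ATF composite TGATGNAA (3.62% of promoters), TGACGTCA (1.85%), the HIF core ACGTG (21.4%), the AP-1 motif TGANTCA (7.71%) and the E-box CACGTG (7.26%, which contains the HIF core) had no match in either window. These are matches of letters in a short window at a single start site per gene. The GENCODE span of each gene extends upstream of its window, so other starts are not covered. The matches say nothing about sites elsewhere in the genes.

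GDF15 was higher with IKE in CFPAC-1 and in PANC-1, at very different levels. In CFPAC-1 it stood at 14.25 and 14.24 FPKM (fragments per kilobase of transcript, scaled to the mapped fragments of the library, so a level per length) with IKE, against 4.90 and 3.97 FPKM with DMSO. In PANC-1 it stood at 82.64, 84.04, 70.23 and 72.30 FPKM with IKE, against 46.95 and 45.26 FPKM with DMSO. No IKE library overlapped a DMSO library of its line, and PANC-1 with DMSO already exceeded CFPAC-1 with IKE. The means were 14.2 ± 0.00707 and 4.44 ± 0.658 FPKM in CFPAC-1 (IKE and DMSO, SD, n = 2 each). In PANC-1 they were 77.3 ± 7.05 FPKM with IKE (SD, n = 4) and 46.1 ± 1.20 FPKM with DMSO (SD, n = 2). The ratio of the mean FPKM was 3.21 in CFPAC-1 and 1.68 in PANC-1. On the log2(FPKM + 1) scale, which understates changes of low genes, the fitted difference was 1.49 (SE 0.106) in CFPAC-1 and 0.73 (SE 0.0919) in PANC-1. Among the 13077 genes tested, these were the 10th and the 36th highest differences. Within PANC-1 IKE, replicates 1 and 2 stood above replicates 3 and 4, and with replicates 1 and 2 alone the difference was 0.84.

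STC2 was also higher with IKE in the libraries of each line, from nearly the same DMSO level. In CFPAC-1 it stood at 44.87 and 44.75 FPKM with IKE, against 13.98 and 14.09 FPKM with DMSO. In PANC-1 it stood at 21.93, 18.83, 18.49 and 19.39 FPKM with IKE, against 13.81 and 12.75 FPKM with DMSO. The CFPAC-1 IKE libraries formed the highest group, and no IKE library overlapped a DMSO library of its line. The means were 44.8 ± 0.0849 and 14.0 ± 0.0778 FPKM in CFPAC-1 (IKE and DMSO, SD, n = 2 each). In PANC-1 they were 19.7 ± 1.56 FPKM with IKE (SD, n = 4) and 13.3 ± 0.750 FPKM with DMSO (SD, n = 2). The ratio of the mean FPKM was 3.19 in CFPAC-1 and 1.48 in PANC-1. The fitted log2 difference was 1.61 (SE 0.0891) in CFPAC-1, the 8th highest of the tested genes, and 0.53 (SE 0.0772) in PANC-1, the 83rd highest.

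STC1 (ENSG00000159167, minus strand of chromosome 8 at 23841915 to 23854807) was the low-level gene of the 3. It was higher with IKE in CFPAC-1 and lower with IKE in PANC-1. In CFPAC-1 it stood at 2.47 and 2.46 FPKM with IKE, against 1.64 and 1.05 FPKM with DMSO. In PANC-1 it stood at 0.53, 0.61, 0.64 and 0.55 FPKM with IKE, against 0.92 and 1.21 FPKM with DMSO. It reached the filter of 1 FPKM through the 4 CFPAC-1 libraries and 1 PANC-1 DMSO library, so it entered the fit by the groups in which it was high. The means were 2.47 ± 0.00707 and 1.35 ± 0.417 FPKM in CFPAC-1 (IKE and DMSO, SD, n = 2 each). In PANC-1 they were 0.583 ± 0.0512 FPKM with IKE (SD, n = 4) and 1.07 ± 0.205 FPKM with DMSO (SD, n = 2). The ratio of the mean FPKM was 1.83 in CFPAC-1 and 0.547 in PANC-1. The fitted log2 difference was 0.57 (SE 0.127) in CFPAC-1 and -0.38 (SE 0.110) in PANC-1. These levels lie near the added pseudocount of 1, and with a pseudocount of 0.1 the PANC-1 value was -0.76.

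**Figure D1:**
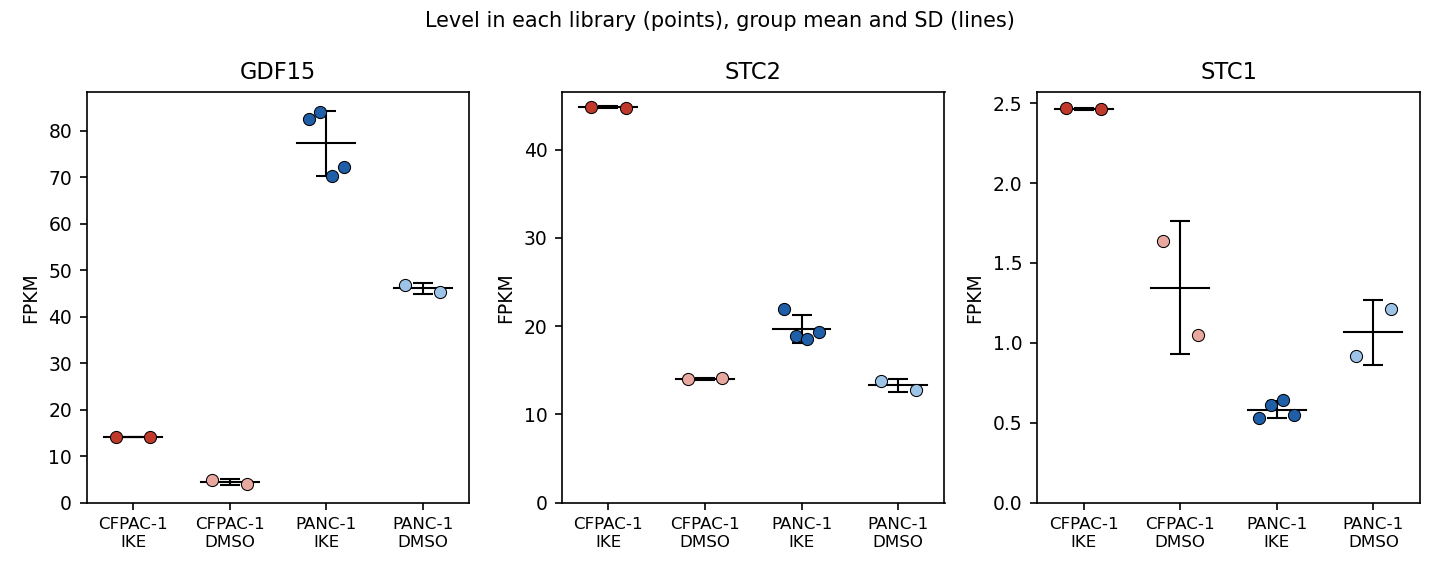
FPKM of GDF15, STC2 and STC1 in each of the 10 libraries (points, vertical axes) by group, with IKE left of DMSO in each line and bars for group mean and SD. GDF15 and STC2 lie above DMSO with IKE in each line, whereas STC1 lies at 0.53 to 0.64 FPKM in PANC-1 with IKE, below the 0.92 and 1.21 FPKM with DMSO.

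All 3 genes stood higher in every CFPAC-1 IKE library than in every CFPAC-1 DMSO library, as did 23% of all tested genes (23.9% stood lower, 46.9% in either direction). In PANC-1, GDF15 and STC2 stood higher in every IKE library than in every DMSO library, as did 12.3% of tested genes, and STC1 stood lower in every IKE library, as did 13.6% (25.9% in either direction). Because the genes were chosen on these contrasts, nothing is read from these counts. The 1st and 99th percentiles of the log2 differences of all tested genes were -0.47 and 0.55 in CFPAC-1 and -0.47 and 0.47 in PANC-1.

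**Figure D2:**
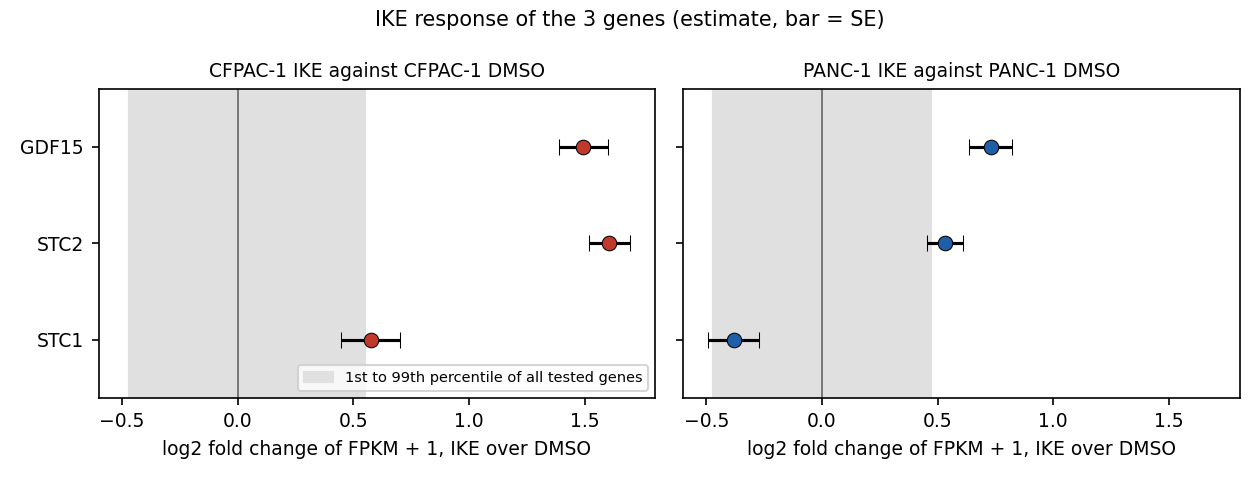
Fitted log2(FPKM + 1) differences, IKE minus DMSO, of GDF15, STC2 and STC1 with their standard errors (error bars) in CFPAC-1 (10 µM) and PANC-1 (1 µM), with the 1st to 99th percentile of all tested genes shaded. CFPAC-1 values are 1.49, 1.61 and 0.57, and PANC-1 values are 0.73, 0.53 and -0.38.

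The 3 genes follow different level orders across the 4 groups. GDF15 was highest in PANC-1 IKE, then PANC-1 DMSO, CFPAC-1 IKE and CFPAC-1 DMSO, and no neighbouring groups overlapped. STC2 was highest in CFPAC-1 IKE, then PANC-1 IKE, CFPAC-1 DMSO and PANC-1 DMSO. The last of these steps was 0.755 FPKM, close to the larger group SD of 0.750 FPKM. STC1 was highest in CFPAC-1 IKE, followed by CFPAC-1 DMSO, and was lowest in PANC-1 IKE, below PANC-1 DMSO. Its DMSO groups overlapped between the lines.

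Without IKE, GDF15 stood far higher in PANC-1 than in CFPAC-1, and the stanniocalcins differed less on the log2 scale. PANC-1 DMSO exceeded CFPAC-1 DMSO 10.4-fold by the mean FPKM, with a log2 difference of 3.12 (SE 0.106). The same difference was -0.18 (SE 0.127) for STC1 and -0.08 (SE 0.0891) for STC2. Line differences were common here, with 78.7% of tested genes called between the DMSO groups at an adjusted p under 0.05 (43.4% higher and 35.2% lower in PANC-1). The STC1 value was 0.23 after quantile normalization and ran from -0.36 to 0.00695 when single libraries were left out. In rank, GDF15 lay at the 64.7 and 64.6 percentile of genes above 0 in the CFPAC-1 IKE libraries, against 38.4 and 34.7 in the CFPAC-1 DMSO libraries. In PANC-1 it lay between 93.4 and 94.6 with IKE, against 88.9 and 88.4 with DMSO.

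On the log2(FPKM + 1) scale, the IKE difference was lower in PANC-1 than in CFPAC-1 for all 3 genes, and for STC1 it had the opposite sign. As a difference of mean FPKM, the order was reversed for GDF15 only, at 31.2 FPKM in PANC-1 and 9.81 FPKM in CFPAC-1. The PANC-1 minus CFPAC-1 value on the log2 scale was -0.76 (SE 0.140) for GDF15, -1.08 (SE 0.118) for STC2 and -0.96 (SE 0.169) for STC1. With a pseudocount of 0.1 the STC1 value was -1.62. Across the 10 libraries, the change of GDF15 relative to the DMSO mean of its line had r = 0.967 with that of STC2, against 0.420 with that of STC1. The corresponding r of the levels was -0.0731 for GDF15 with STC2 and -0.679 for GDF15 with STC1, and 0.589 for STC1 with STC2. These describe 10 points that share 2 lines and 4 groups.

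Genes were then ranked by the Pearson r of their log2(FPKM + 1) with each of the 3 genes over the 10 libraries. For the level of GDF15 the closest were PYCR1 (r = 0.997), CARS1 (0.996), XPOT (0.995), GRB10 (0.995) and GARS1 (0.995). PYCR1 makes proline, CARS1 and GARS1 charge tRNAs, and XPOT exports tRNAs from the nucleus. PYCR1 averaged 33.7 FPKM with IKE against 16.3 FPKM with DMSO in CFPAC-1, and 128 FPKM with IKE against 85.6 FPKM with DMSO in PANC-1. For the change from DMSO the closest to GDF15 were PHGDH (0.995), TRIB3 (0.991), CBS (0.991), NQO1 (0.990) and SLC1A5 (0.989). PHGDH starts serine synthesis and CBS is the entry enzyme of transsulfuration.

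For the level of STC2 the closest genes were ATF4 (r = 0.981), ADM2 (0.972), EIF4B (0.967), PGD (0.966) and SHMT2 (0.964). ATF4 is the central transcription factor of the integrated stress response. For the change from DMSO they were XPOT (0.994), MTHFD2 (0.990), PSAT1 (0.986), SHMT2 (0.986) and ERRFI1 (0.984). MTHFD2 and SHMT2 are mitochondrial enzymes of folate metabolism, and PSAT1 is an enzyme of serine synthesis.

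For the level of STC1 the 5 closest genes included MZF1 (r = 0.970), ABCA10 (0.967), P4HA1 (0.964) and GARIN1A (0.957). P4HA1 hydroxylates collagen proline and is a HIF target. For the change from DMSO they included NBPF1 (0.977), CEMIP (0.965), LYPD3 (0.964) and OAZ3 (0.963). Several of these were low: ABCA10 ran from 0.07 to 1.14 FPKM and OAZ3 from 0.0 to 1.22 FPKM over the libraries. CEMIP did not exceed 0.56 FPKM and LYPD3 did not exceed 0.73 FPKM in PANC-1. With 10 libraries in 4 groups, these r values describe few independent points and carry no test.

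**Figure D3:**
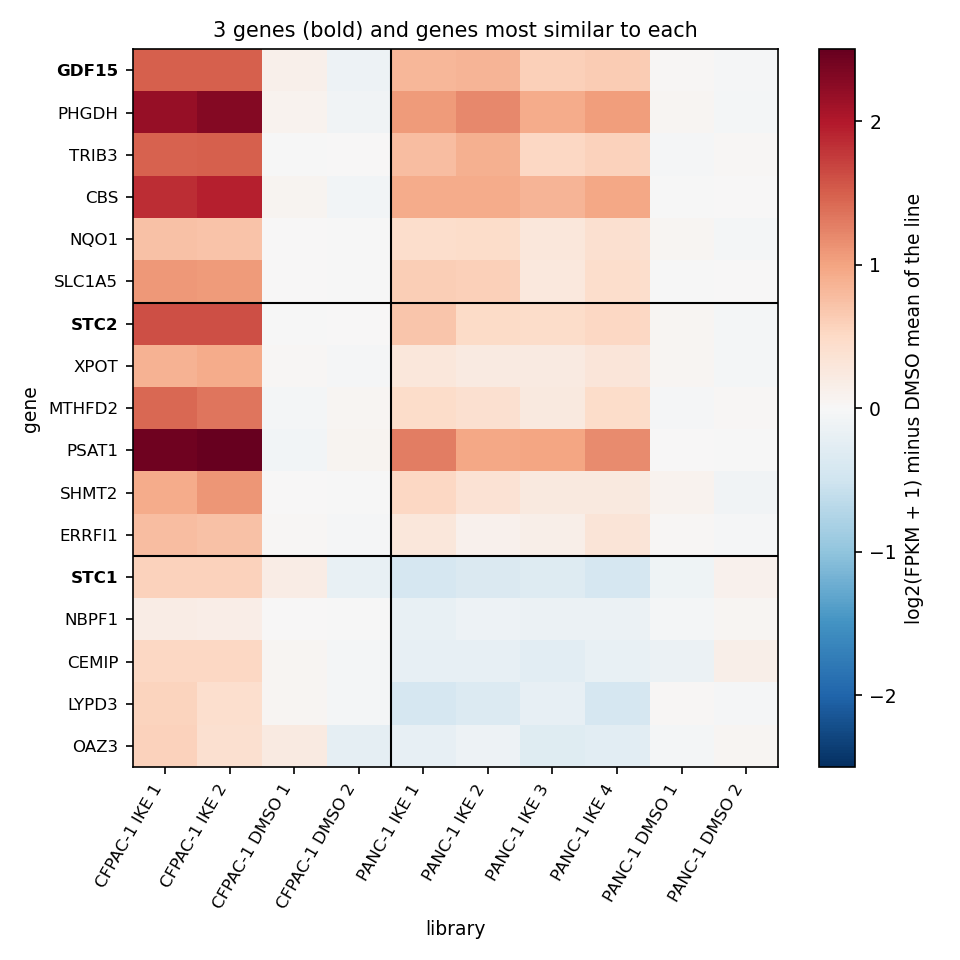
Heat map of log2(FPKM + 1) minus the DMSO mean of the line in each of the 10 libraries (columns) for GDF15, STC2 and STC1 and genes among the 5 with the highest r of this change to each (rows). Red is above and blue below the DMSO mean: the GDF15 and STC2 blocks are red with IKE in each line, and the STC1 block is red with IKE in CFPAC-1 and blue with IKE in PANC-1.

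The integrated stress response, in which phosphorylation of eIF2α raises translation of ATF4, is a known route to GDF15 and STC2 transcription. This gene list and those below were chosen with earlier results of these libraries known. Their counts beside the share of all genes are therefore a description and not a test of the list. In CFPAC-1, 3 of 23 tested genes of this response rose with IKE, ATF4, TRIB3 and CEBPG, against 1.32% of all tested genes called at an adjusted p under 0.05 (0.864% higher and 0.459% lower). The median log2 difference of the list was 0.08, against 0 over all tested genes. ATF4 stood at 232.28 and 227.80 FPKM with IKE, against 91.42 and 93.95 FPKM with DMSO (log2 difference 1.30, SE 0.0732, limma adjusted p = 2.98e-06). TRIB3, a pseudokinase that feeds back on ATF4, stood at 67.74 and 67.93 FPKM with IKE, against 23.38 and 23.83 FPKM with DMSO (1.48, SE 0.111, limma adjusted p = 3.91e-05). CEBPG, a partner of ATF4, had a log2 difference of 0.72 (SE 0.0907, limma adjusted p = 0.0017). No single library, when left out, ended these 3 calls, but with the CFPAC-1 libraries fitted alone the CEBPG call was lost (limma adjusted p = 0.116). ATF3 (0.34, limma adjusted p = 0.728) and DDIT3 (0.33, limma adjusted p = 0.218) did not pass.

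In PANC-1, 3 of the 23 genes rose, PPP1R15A, TRIB3 and NUPR1, against 2.38% of all tested genes called (1.21% higher and 1.17% lower). The list median was 0.20, against -0.00628 over all tested genes. PPP1R15A, which reverses eIF2α phosphorylation, stood at 13.99, 12.88, 12.02 and 13.84 FPKM with IKE, against 6.48 and 7.73 FPKM with DMSO (0.81, SE 0.0907, limma adjusted p = 0.00146). TRIB3 had a log2 difference of 0.69 (limma adjusted p = 0.00528), and without PANC-1 DMSO replicate 1 its limma adjusted p was 0.0778. NUPR1, a stress-induced chromatin protein, had 1.06 (limma adjusted p = 0.00681), and without PANC-1 DMSO replicate 2 its limma adjusted p was 0.086. With the PANC-1 libraries fitted alone, the TRIB3 and NUPR1 calls were lost (limma adjusted p = 0.0784 and 0.0861). ATF4 did not pass in PANC-1: it stood at 118.19, 117.62, 105.46 and 123.12 FPKM with IKE, against 99.71 and 98.77 FPKM with DMSO (0.22, limma adjusted p = 0.0951). DDIT3 (0.40, limma adjusted p = 0.0617) and ATF3 (1.19, limma adjusted p = 0.0509) did not pass either. Without PANC-1 IKE replicate 3, ATF4, DDIT3 and ATF3 passed, with limma adjusted p of 0.0293, 0.0376 and 0.0264, and the list then had 6 calls. Without PANC-1 IKE replicate 2, ATF3 passed (limma adjusted p = 0.042) and the list had 5 calls. With a filter of 5 FPKM, ATF3 passed too (limma adjusted p = 0.0353).

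The response of ATF4 itself differed between the lines, PANC-1 minus CFPAC-1 being -1.08 (SE 0.0968, limma adjusted p = 0.00146), where 0.336% of tested genes were called (0.107% higher and 0.229% lower). This call held under each alternative that gave a value. With DMSO, ATF4 averaged 99.2 FPKM in PANC-1 and 92.7 FPKM in CFPAC-1 (limma adjusted p = 0.238), while GDF15 differed 10.4-fold there. TRIB3 was lower in PANC-1 DMSO than in CFPAC-1 DMSO (-0.90, limma adjusted p = 1.54e-05), the opposite direction to GDF15. In this contrast 9 of the 23 integrated stress response genes were called higher and 9 lower, against 43.4% and 35.2% of all tested genes. Those higher, in the direction of GDF15, included CEBPG (1.86, limma adjusted p = 4.23e-09) and NUPR1 (3.02, limma adjusted p = 2.69e-08). The part of these genes in the GDF15 level was not tested. NUPR1 was listed at or near 0 in CFPAC-1, at 0 with IKE and at 0.01 FPKM or less with DMSO.

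**Figure D4:**
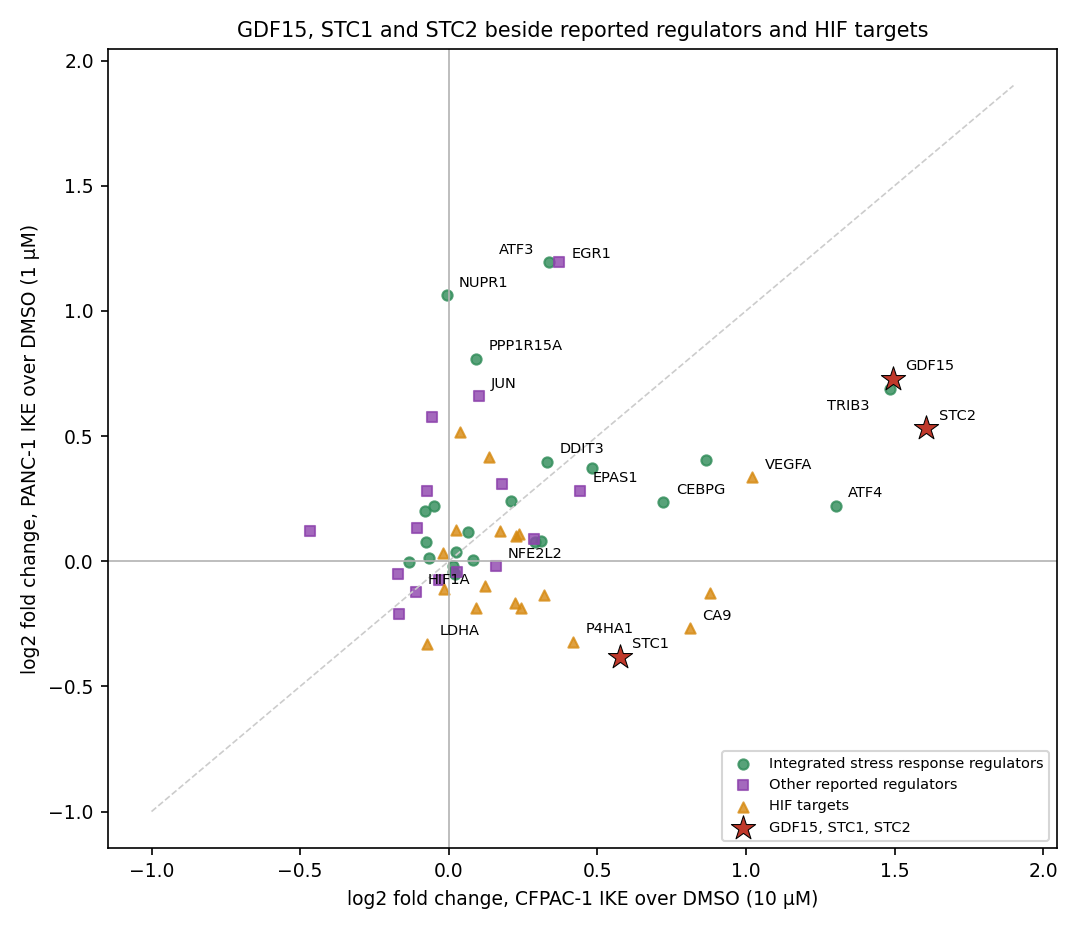
Log2(FPKM + 1) differences of IKE and DMSO in CFPAC-1 (horizontal) against PANC-1 (vertical) for GDF15, STC2 and STC1 (stars) and for genes of the regulator and target lists (one symbol per list). The dashed line marks equal differences. GDF15 lies beside TRIB3, at 1.49 and 0.73, and STC1 lies beside P4HA1 and CA9, above 0 in CFPAC-1 and below 0 in PANC-1.

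Among 16 other reported regulators of GDF15, STC1 and STC2, 1 rose in CFPAC-1 and 2 rose in PANC-1, with list medians of -0.00252 and 0.13. Over all tested genes, 0.864% were called higher in CFPAC-1 and 1.21% in PANC-1. In CFPAC-1 this was EPAS1, the hypoxia factor HIF-2α (0.44, SE 0.0908, limma adjusted p = 0.0402), whose call was lost when any one library was left out except CFPAC-1 IKE replicate 2 and PANC-1 IKE replicate 2 (limma adjusted p 0.0555 to 0.242). In PANC-1, EGR1 stood at 3.27, 2.99, 1.75 and 3.36 FPKM with IKE, against 0.67 and 0.63 FPKM with DMSO (1.20, SE 0.161, limma adjusted p = 0.00413). Its limma adjusted p was 0.0547 without PANC-1 DMSO replicate 1. In CFPAC-1, EGR1 averaged 6.58 FPKM with IKE and 4.86 FPKM with DMSO and did not pass (0.37, limma adjusted p = 0.420). Its response was not called different between the lines (0.82, limma adjusted p = 0.215), except without PANC-1 IKE replicate 3 (limma adjusted p = 0.0255). For JUN (0.66, limma adjusted p = 0.0144) the call ended when PANC-1 DMSO replicate 1 or 2 was left out (limma adjusted p = 0.157 and 0.0886). With each line fitted alone, the EPAS1, EGR1 and JUN calls were lost (limma adjusted p = 0.189, 0.0716 and 0.102), and without a filter on low values that of EPAS1 was lost (0.0588). HIF1A (-0.11 in CFPAC-1 and -0.12 in PANC-1) and NFE2L2 (0.16 and -0.02) did not pass, with limma adjusted p between 0.306 and 0.896.

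The 18 HIF targets had a median log2 difference of 0.20 in CFPAC-1 and -0.10 in PANC-1, against 0 and -0.00628 over all tested genes. In CFPAC-1, 3 rose, VEGFA (1.02, limma adjusted p = 0.00839), P4HA1 (0.42, limma adjusted p = 0.0227) and CA9 (0.81, limma adjusted p = 0.024), against 0.864% of all tested genes called higher. VEGFA, an angiogenic growth factor, stood at 216.43 and 214.67 FPKM with IKE, against 92.19 and 121.04 FPKM with DMSO. The calls of P4HA1 and of CA9, a carbonic anhydrase, were lost when any 1 CFPAC-1 library was left out (limma adjusted p 0.0935 to 0.18 and 0.0515 to 0.178). That of VEGFA was lost without CFPAC-1 DMSO replicate 1 or CFPAC-1 IKE replicate 1 or 2 (0.0674 to 0.0922), so that 1 call or none was left. In PANC-1 2 fell, LDHA, which makes lactate (-0.33, limma adjusted p = 0.0189), and P4HA1 (-0.32, limma adjusted p = 0.033), against 1.17% of all tested genes called lower. The LDHA call was lost without PANC-1 DMSO replicate 1 or 2 (limma adjusted p = 0.229 and 0.0516). The P4HA1 call was lost without any 1 of the 4 CFPAC-1 libraries, either PANC-1 DMSO library or PANC-1 IKE replicate 1 or 3 (0.0528 to 0.306). Without PANC-1 IKE replicate 3, 2 HIF targets were called higher. With each line fitted alone, all 5 of these calls were lost (limma adjusted p 0.0916 to 0.121), and with a pseudocount of 0.1 that of CA9 was lost (0.432).

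P4HA1, one of the 5 genes closest to STC1 in level, stood at 42.66 and 40.17 FPKM with IKE against 31.50 and 30.02 FPKM with DMSO in CFPAC-1. In PANC-1 it stood at 20.52, 21.59, 21.39 and 22.99 FPKM with IKE, against 28.31 and 26.22 FPKM with DMSO. Its response differed between the lines by -0.74 (SE 0.103, limma adjusted p = 0.0159). That call was lost without any 1 CFPAC-1 library or PANC-1 DMSO replicate 1 (limma adjusted p 0.0537 to 0.0917).

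GFRAL, the receptor of GDF15, was listed at 0 in all 10 libraries. RET, its co-receptor, averaged 0.0800 FPKM with IKE and 0.115 FPKM with DMSO in CFPAC-1. In PANC-1 RET stood at 5.04, 5.71, 4.16 and 5.39 FPKM with IKE, against 7.88 and 7.60 FPKM with DMSO (-0.53, SE 0.108, limma adjusted p = 0.0292). It was the 1 of 6 tested members of the receptor and processing list called there, against 2.38% of all tested genes (1.17% lower). The call was lost without either CFPAC-1 IKE library, either PANC-1 DMSO library or PANC-1 IKE replicate 1 or 4 (limma adjusted p 0.0506 to 0.232). It was also lost with the PANC-1 libraries fitted alone, a pseudocount of 0.1 or no filter on low values (limma adjusted p = 0.134, 0.0970 and 0.0585). None of the 6 was called in CFPAC-1 by limma, where 1.32% of all tested genes were, with 1 higher and 1 lower at an unadjusted p under 0.05, and the list medians were 0.05 in CFPAC-1 and -0.01 in PANC-1. FURIN, a convertase that can cleave pro-GDF15, averaged 34.6 FPKM with IKE and 32.8 FPKM with DMSO in CFPAC-1, and 28.1 FPKM with IKE and 30.6 FPKM with DMSO in PANC-1. MMP14, a membrane metalloprotease, averaged 128 FPKM with IKE and 112 FPKM with DMSO in CFPAC-1, and 11.6 FPKM with IKE and 10.7 FPKM with DMSO in PANC-1.

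The proteases that the stanniocalcins inhibit stood under 1 FPKM in every library. PAPPA averaged 0.775 FPKM with IKE and 0.560 FPKM with DMSO in CFPAC-1, and 0.240 FPKM with IKE and 0.210 FPKM with DMSO in PANC-1. PAPPA2 did not exceed 0.05 FPKM in any library. Among the IGF binding proteins the lines differed in level, with IGFBP3 at 136 FPKM with IKE and 166 FPKM with DMSO in CFPAC-1, against 2.97 FPKM with IKE and 3.97 FPKM with DMSO in PANC-1. IGFBP4, a PAPPA substrate, averaged 151 FPKM with IKE and 154 FPKM with DMSO in CFPAC-1, and 53.9 FPKM with IKE and 63.3 FPKM with DMSO in PANC-1. IGF1 was listed at 0 in all 10 libraries, and IGF2 averaged 20.0 FPKM with IKE and 18.9 FPKM with DMSO in CFPAC-1, and 6.55 FPKM with IKE and 6.82 FPKM with DMSO in PANC-1. Of the 13 tested members of this axis, 1 rose in CFPAC-1, IGFBP1, at 9.08 and 8.18 FPKM with IKE, against 5.68 and 5.55 FPKM with DMSO (0.54, SE 0.110, limma adjusted p = 0.0393). Its call was lost when any one library was left out except PANC-1 IKE replicates 2 and 3 (limma adjusted p 0.0552 to 0.2). It was also lost with the CFPAC-1 libraries fitted alone or a pseudocount of 0.1 (limma adjusted p = 0.138 and 0.369). Over all tested genes, 0.864% were called higher in CFPAC-1 and 2.38% were called in PANC-1. None was called in PANC-1 by limma, with 1 higher and 4 lower at an unadjusted p under 0.05, and the list medians were 0.08 in CFPAC-1 and -0.03 in PANC-1.

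**Figure D5:**
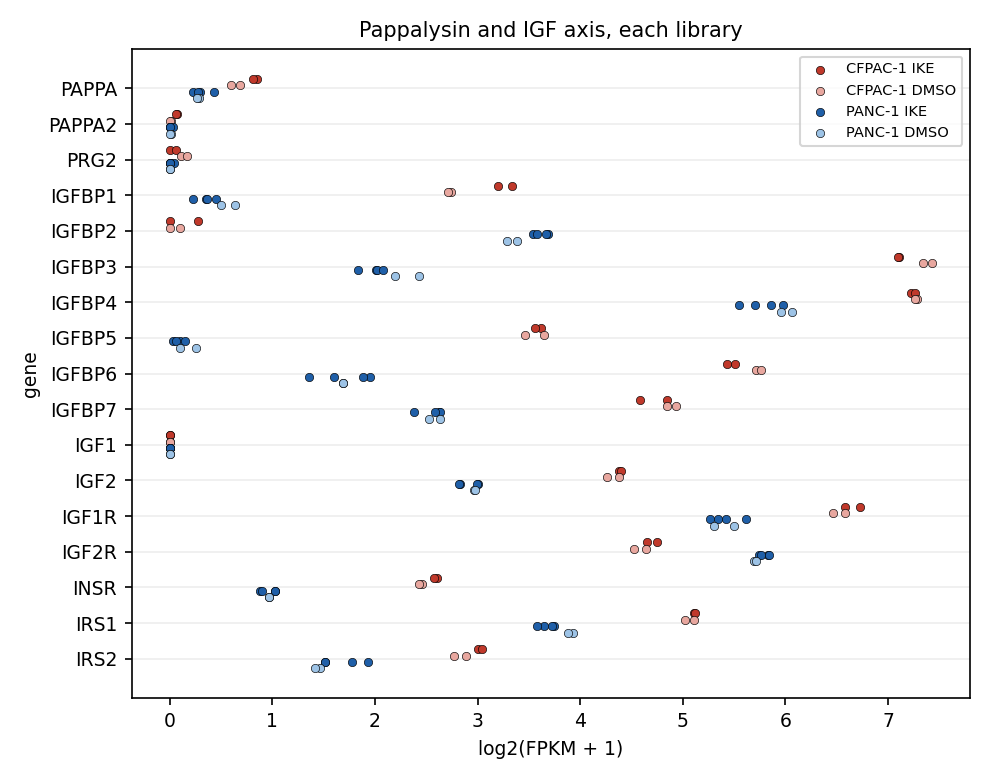
Level of each gene of the pappalysin and IGF list (rows) in each library (points, log2(FPKM + 1) on the horizontal axis), coloured by group, IKE above DMSO in each line. PAPPA, PAPPA2 and IGF1 lie at the low end in every library, and IGFBP3 and IGFBP4 lie farther right in CFPAC-1 than in PANC-1.

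Among other secreted stress factors, 2 of 25 tested genes rose in CFPAC-1, ADM2 and VEGFA, against 0.864% of all tested genes called higher. ADM2, a peptide of the calcitonin family, stood at 3.86 and 3.03 FPKM with IKE, against 1.01 and 1.07 FPKM with DMSO (1.12, SE 0.118, limma adjusted p = 4.04e-04). Without CFPAC-1 DMSO replicate 1 or CFPAC-1 IKE replicate 1 or 2, ADM2 was the 1 call left. With the CFPAC-1 libraries fitted alone, the ADM2 call was lost too (limma adjusted p = 0.0664). TNC, a matrix glycoprotein, did not pass in CFPAC-1 (-0.51, limma adjusted p = 0.0546) but was called lower there without PANC-1 DMSO replicate 1 or 2 or PANC-1 IKE replicate 2, after quantile normalization or median-ratio scaling, and with a filter of 5 FPKM (limma adjusted p 0.0307 to 0.0496). In PANC-1, 4 rose and 1 fell, against 1.21% of all tested genes called higher and 1.17% lower, and the list medians were 0.07 in CFPAC-1 and 0.25 in PANC-1. CCN1, a matrix-associated growth regulator, stood at 177.30, 151.66, 147.24 and 179.23 FPKM with IKE, against 95.09 and 88.53 FPKM with DMSO (0.82, SE 0.0864, limma adjusted p = 9.56e-04). CRELD2, an endoplasmic reticulum stress protein, had 0.39 (limma adjusted p = 0.0205), lost without PANC-1 DMSO replicate 1 or 2 (limma adjusted p = 0.214 and 0.108). CCN2, named after its values were seen, had 0.83 (limma adjusted p = 0.0283). TNC fell by 0.63 (limma adjusted p = 0.00747), with a limma adjusted p of 0.0894 without PANC-1 DMSO replicate 2. With the PANC-1 libraries fitted alone, the CRELD2 and TNC calls were lost (limma adjusted p = 0.102 and 0.0833). Without PANC-1 DMSO replicate 1, 2 genes of the list were called higher, and without PANC-1 DMSO replicate 2, 1. FGF21, another ATF4-dependent hormone, was listed at 0 in 9 of the 10 libraries.

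Of 36 TGF-β superfamily ligands other than GDF15, 12 were tested. None was called in CFPAC-1 by limma, where 1.32% of all tested genes were, with 1 higher and 1 lower at an unadjusted p under 0.05. In PANC-1, BMP6 (0.53, limma adjusted p = 0.0174) rose, while BMP5 (-0.46, limma adjusted p = 0.0212) and GDF11 (-0.47, limma adjusted p = 0.0254) fell, against 1.21% of all tested genes called higher and 1.17% lower. The BMP6 call was lost without either PANC-1 DMSO library (limma adjusted p = 0.114 and 0.141). The BMP5 and GDF11 calls were lost without either PANC-1 DMSO library or PANC-1 IKE replicate 1 or 4 (0.0506 to 0.211). All 3 calls were also lost with the PANC-1 libraries fitted alone or a pseudocount of 0.1 (limma adjusted p 0.0714 to 0.118), and that of GDF11 after quantile normalization (0.0555). The list medians were -0.00359 in CFPAC-1 and -0.05 in PANC-1.

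Marker levels and library totals were looked at beside these results. All 7 ductal epithelial markers were at 1 FPKM or more in every group. They summed to 6006 to 6097 FPKM with IKE and 6546 to 6893 FPKM with DMSO in CFPAC-1. In PANC-1 they summed to 4889 to 5719 FPKM with IKE and 5135 to 5681 FPKM with DMSO. KRT8, KRT18 and KRT19 made up most of each sum, which hides line differences of the others. Between the DMSO groups, limma called 5 of the 7 lower and 1 higher in PANC-1, against 35.2% and 43.4% of all tested genes. The median log2 difference of the 7 was -1.39, against 0.12 over all tested genes. KRT7, for example, averaged 4.97 FPKM in PANC-1 DMSO and 296 FPKM in CFPAC-1 DMSO. The 15 markers of other cell types summed to 70.9 to 73.8 FPKM with IKE and 68.4 to 73.6 FPKM with DMSO in CFPAC-1, and to 52.4 to 60.2 FPKM with IKE and 48.9 to 55.2 FPKM with DMSO in PANC-1, with INS, GCG and HBB at 0 in all 10 libraries. Of these 15, 3 reached 1 FPKM in every PANC-1 IKE library, and 4 did so in every library of each other group. CD68 stood at 23.98 to 46.26 FPKM over the 10 libraries, PECAM1 at 18.45 to 21.29 FPKM in CFPAC-1 and COL1A1 at 17.94 to 24.94 FPKM in PANC-1. Between IKE and DMSO, none of the 7 and none of the 5 tested markers was called by limma in either line. At an unadjusted p under 0.05, 1 ductal marker was lower in CFPAC-1 and 1 other marker was higher in PANC-1. FPKM totals ran from 405937 to 472665 per library, and mitochondrial genes took 2.65% to 5.27% of FPKM, most in PANC-1 IKE replicate 3. The part of this share in the results was not tested.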

How the data were processed

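RNA of 10 libraries was measured after rRNA removal, with random priming and removal of the second strand, per the labels' protocols. Per the submitters' processing notes, the tools named are HISAT2 2.1.0, StringTie 1.3.4, Bowtie2 2.2.8, fastp 0.18.0 and DESeq2, and the build is GRCh38. What each tool did, the annotation and whether strand was used in counting are not stated in these notes. The authors deposited FPKM values, rounded to 2 decimals, for 20289 genes (20257 with a symbol) in 10 columns, and 9 further columns are empty. Read depth is unknown, so no counting error is given.

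Genes reaching 1 FPKM in 2 libraries or more were tested (13077, including GDF15, STC1 and STC2). limma 3.58.1 (R 4.3.3) was run on log2(FPKM + 1) with 4 group means, all 10 libraries and a trended prior (6 residual and 5.1 prior df). Tests were two-sided, with Benjamini-Hochberg adjustment across the 13077 genes and calls at 0.05. The procedure was tested on simulated data. The contrasts compared IKE with DMSO per line, the IKE responses between lines, and PANC-1 with CFPAC-1 under DMSO. GDF15, STC1, STC2 and the gene lists were chosen with earlier results of these data known. The 3 genes therefore carry no p-value, and the counts of list genes called are a description. Genes named were up to 4 called genes with the smallest p per list and IKE contrast, the 5 closest to each of the 3 genes per measure, the receptor and IGF lists by level, and ATF4, DDIT3, ATF3, HIF1A, EGR1 and NFE2L2. A few genes that these rules name, and 1 of the lists, are not reported here. Alternatives were quantile normalization, median-ratio scaling (added after seeing the data), a pseudocount of 0.1, no filter, a filter of 5 FPKM, a replicate block, each line fitted alone, only PANC-1 IKE replicates 1 and 2, and leaving out each library.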

Additional observations from a re-analysis of the deposited data

Results flagged for a closer look

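In PANC-1 with IKE, CCNG1 stood at 41.82 FPKM in replicate 2, against 49.18 to 50.40 FPKM in the other replicates, a gap that exceeded Dixon's critical value for 4 samples. TNC stood at 4.51 FPKM in replicate 2 of the same group, against 4.22 to 4.25 FPKM in the others, and exceeded it too. Chance flags about 1 in 20 such groups, and 31 named genes were examined.

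Among the named genes, the IKE response of 4 differed between the lines by limma, as PANC-1 minus CFPAC-1 on the log2 scale. The difference was -1.08 for ATF4 (adjusted p = 0.00146), 0.86 for CCN1 (adjusted p = 0.0211), -0.74 for P4HA1 (adjusted p = 0.0159) and -0.83 for GDF11 (adjusted p = 0.0392). The CCN1 call was lost when any 1 CFPAC-1 library or any 1 PANC-1 DMSO library was left out (limma adjusted p 0.077 to 0.118), and without a filter on low values (0.0513). The GDF11 call was lost when any one library was left out except PANC-1 IKE replicate 2 (limma adjusted p 0.0553 to 0.185), and after quantile normalization, with a pseudocount of 0.1 or without a filter (0.0516 to 0.0874). STC1 went in opposite directions, each IKE library above the DMSO libraries in CFPAC-1 and below them in PANC-1, with a difference of -0.96 that was not tested. Of all tested genes, 23% stood wholly above in CFPAC-1 and 13.6% wholly below in PANC-1, and the share doing both was not computed. The STC1 levels lie near the pseudocount of 1, so nothing is read from this flag.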

How the results depend on the processing

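GDF15 and STC2 stayed higher with IKE in each line, and STC1 higher in CFPAC-1 and lower in PANC-1, under each alternative that gave a value. With a pseudocount of 0.1, GDF15 was 1.67 in CFPAC-1, -0.93 in the difference between lines and 3.36 between DMSO groups, and STC1 was 0.86 in CFPAC-1, -0.76 in PANC-1 and -1.62 in the difference. Quantile normalization gave 1.66 and -0.93 for GDF15 in CFPAC-1 and in the difference, and 0.23 for STC1 between DMSO groups. Median-ratio scaling, chosen after seeing the data, moved the median of all genes between DMSO groups by -0.18 and gave 2.94 for GDF15 and -0.26 for STC2 there. The causes were not tested.

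With single libraries left out, GDF15 ran from 1.37 to 1.62 in CFPAC-1, 0.69 to 0.77 in PANC-1, -0.89 to -0.64 in the difference and 3.00 to 3.24 between DMSO groups. STC1 ran from 0.39 to 0.76, -0.48 to -0.28, -1.14 to -0.77 and -0.36 to 0.00695. STC2 ran from 1.60 to 1.61, 0.48 to 0.58, -1.13 to -1.02 and -0.13 to -0.02.

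Called genes numbered 113 higher and 60 lower in CFPAC-1 (64 to 152 and 16 to 104 with single libraries left out), 158 and 153 in PANC-1 (35 to 206 and 7 to 298), and 14 and 30 in the difference (0 to 17 and 13 to 46). The 0, by limma without CFPAC-1 DMSO replicate 2, stood beside 653 genes at an unadjusted p under 0.05. Fits of 1 line gave 50 and 7 in CFPAC-1 and 26 and 6 in PANC-1. Quantile normalization gave 102 lower in CFPAC-1. PANC-1 IKE replicates 1 and 2 alone gave 66 lower in PANC-1 and 4 higher and 13 lower in the difference. Named calls lost in that setting were EPAS1, IGFBP1 and CA9 in CFPAC-1 and GDF11 in the difference. In PANC-1 they were RET, BMP6, GDF11, CCNG1, P4HA1, LDHA and CRELD2 (limma adjusted p 0.0566 to 0.107 over these calls). A pseudocount of 0.1 gave 8 higher in the difference, and no filter gave 23.

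Labels do not say that a replicate number pairs libraries. Deviations of same-numbered libraries correlated at 0.0119 in CFPAC-1, and at 0.172 (number 1) and -0.058 (number 2) in PANC-1. Differently numbered libraries reached 0.171 in PANC-1 (DMSO 2 with IKE 3). With 2 DMSO libraries per line, their deviations mirror each other, so these values cannot decide whether numbers pair libraries. With a replicate block, calls were 66 higher and 13 lower in CFPAC-1, 50 and 13 in PANC-1, and 0 and 2 in the difference, where 767 genes were higher at an unadjusted p under 0.05 in limma. STC1 between DMSO groups was -0.34 with the block. Named calls lost with it were EPAS1, IGFBP1, P4HA1 and CA9 in CFPAC-1, RET, BMP6, BMP5, GDF11, JUN, CCNG1, P4HA1, LDHA, TNC and CRELD2 in PANC-1, and CCN1, P4HA1 and GDF11 in the difference (limma adjusted p 0.0696 to 0.246). Depth is unknown, so what it limits cannot be given.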
